A study of Mus musculus with 6 samples.

Results

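The Spata genes (spermatogenesis-associated genes) are a naming group rather than a protein family, in which most members were named because their transcripts were found in testis. The 28 genes described here are all rows of the expression table whose symbol is Spata followed by a digit, with 2 rows of that pattern left out by the rule that set the group, among 36652 genes in the table. Expression was measured by RNA sequencing of whole testis from 8-week-old mice, in 6 libraries, 3 of genotype WT and 3 of genotype Ccdc117ko by their labels. Ccdc117 is the gene for a coiled-coil protein. The labels give neither the strain, the kind of Ccdc117 allele nor any further treatment, and they do not say whether the 3 libraries of a genotype came from separate mice, so p-values here measure the spread between these libraries. All values are normalized counts, meaning reads scaled so that libraries of different depth can be compared.

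Sperm are made in the seminiferous tubules of the testis, where spermatogonia divide, spermatocytes pass through meiosis, and haploid round spermatids elongate into sperm. During elongation the cell builds an acrosome over the nucleus, a connecting piece that joins head to tail, a flagellum, and a sheath of mitochondria around its midpiece. Spata proteins whose roles are known act in many of these structures. Spata46 lies at the subacrosomal nuclear envelope, Spata6 builds the connecting piece, and Spata19 and Spata33 act at sperm mitochondria. Others work in cells in general, such as Spata2, which bridges the deubiquitinase CYLD to the linear ubiquitin assembly complex, and Spata5 and Spata5l1, AAA-type ATPases of ribosome maturation. The Spata31 genes form a multi-copy family expressed in testis.

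The stretches just upstream of several of these genes are shown first. Of these stretches 4 belong to genes that passed the test between the genotypes, and the others show how 4 of the 5 Spata31 copies relate. They come from RefSeq on GRCm38.p6, read 5′ to 3′ on the strand of the gene, from at most 150 bases upstream of the start site with bases of annotated exons trimmed off. Of the 28 genes, 26 matched the RefSeq promoter table, and for 18 of them the RefSeq start lay within 30 bases of the GENCODE start. Capitals mark matches on either strand to 5 short motifs. These are the CCAAT box, searched as CCAAT; the core of the cAMP response element, searched as TGACG; the half-site of RFX factors, searched as GTTGCC; the TATA box, searched as TATAAA; and an element searched as TGTGATG. The first 3 windows precede genes that were higher in the libraries labelled Ccdc117ko, Spata46 at chr1:170308669-170308802 (plus strand), Spata25 at chr2:164828538-164828684 (minus strand) and Spata19 at chr9:27396657-27396799 (plus strand). The fourth precedes Spata32, the gene that was lower, at chr11:103218433-103218582 (minus strand).
Spata46: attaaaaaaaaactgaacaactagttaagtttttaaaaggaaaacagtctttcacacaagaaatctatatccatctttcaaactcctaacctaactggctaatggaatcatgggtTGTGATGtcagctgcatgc
Spata25: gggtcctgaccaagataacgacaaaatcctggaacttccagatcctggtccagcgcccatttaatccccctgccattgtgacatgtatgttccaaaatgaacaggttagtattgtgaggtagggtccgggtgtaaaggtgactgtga
Spata19: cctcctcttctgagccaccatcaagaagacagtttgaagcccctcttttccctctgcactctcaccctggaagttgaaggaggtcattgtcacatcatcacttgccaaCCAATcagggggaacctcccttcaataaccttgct
Spata32: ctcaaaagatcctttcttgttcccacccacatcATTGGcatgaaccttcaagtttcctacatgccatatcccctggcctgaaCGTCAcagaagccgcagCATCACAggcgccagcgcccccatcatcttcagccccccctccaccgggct

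The next 4 windows precede copies of the Spata31 family on chromosome 13, Spata31 at chr13:64917256-64917405 (plus strand), Spata31d1b at chr13:59712134-59712283 (plus strand), Spata31d1c at chr13:65032908-65033057 (plus strand) and Spata31d1d at chr13:59731753-59731902 (minus strand).
Spata31: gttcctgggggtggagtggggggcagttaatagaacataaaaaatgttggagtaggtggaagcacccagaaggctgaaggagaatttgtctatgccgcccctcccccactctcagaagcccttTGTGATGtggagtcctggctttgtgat
Spata31d1b: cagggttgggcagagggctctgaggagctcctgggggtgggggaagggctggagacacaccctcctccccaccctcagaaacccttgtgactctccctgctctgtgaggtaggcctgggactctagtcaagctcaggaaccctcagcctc
Spata31d1c: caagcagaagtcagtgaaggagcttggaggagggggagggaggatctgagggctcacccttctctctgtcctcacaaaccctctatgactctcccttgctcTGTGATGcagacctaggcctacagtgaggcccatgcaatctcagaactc
Spata31d1d: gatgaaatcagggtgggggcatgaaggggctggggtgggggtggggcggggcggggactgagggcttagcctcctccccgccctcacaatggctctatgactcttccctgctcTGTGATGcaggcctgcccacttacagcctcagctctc

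In global alignments the 3 Spata31d1 windows shown were 65% to 67.3% identical to one another. The Spata31 window was 45% to 46.5% identical to them, within the 40.3% to 52.8% found for the 22 pairs that held at least 1 gene outside the family. Spata31d1a has no window here and was not aligned. Its RefSeq start lay 4133 bases from the GENCODE start, and all 150 bases upstream of it lie in annotated exons. In full windows of 150 bases, the TGTGATG element was present upstream of 5 of the 26 genes (Spata46, Spata32, Spata31, Spata31d1c and Spata31d1d) and of 2.93% of all 32851 RefSeq promoters. That element was picked after these sequences had been read, so its count supports nothing. The CCAAT box was present upstream of 6 of 26 genes (24.5% of all promoters), the cAMP response core of 6 (13.3%), the RFX half-site of 2 (6.64%) and the TATA box of 1 (7.57%). A match is a string of letters, and the lack of one says only that these letters are not in this window.

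All 28 genes were detected in every library and passed the filter on low values, set at a mean level of 0.5 normalized counts. Their mean levels ran from 79.2 normalized counts for Spata5l1 to 56162 for Spata20, and 25 of them had a mean of at least 1000. Scaled by the length of the longest transcript, the most abundant in the WT libraries were Spata4 with 28326 normalized counts per kilobase, Spata24 with 22506, Spata20 with 21285, Spata21 with 17518 and Spata3 with 16667. The least abundant per kilobase were Spata13 with 41.0, Spata5l1 (annotated as a processed transcript, not as protein-coding) with 53.6 and Spata2 with 247. The 3 lowest genes per length are all known outside the germ line as well. Summed over the 28 genes, the level was 324469 ± 4885 normalized counts in WT and 345425 ± 3222 in the libraries labelled Ccdc117ko (mean ± SD, n = 3 each).

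Between genotypes, 9 of the 28 genes were higher in the libraries labelled Ccdc117ko, 1 was lower and 18 did not pass the test (limma, adjusted p under 0.05 over all 32783 genes tested). The 9 were Spata46, Spata45, Spata25, Spata9, Spata2l, Spata24, Spata19, Spata17 and Spata7, and the gene that fell was Spata32. Of all genes tested, 6.8% were called in either direction, 3.7% higher and 3.1% lower. Abundant genes were called more often, and among the 6427 protein-coding genes at a mean level of 1000 or more the shares were 10.6% higher and 7.78% lower. The 25 Spata genes at that level held all 10 of the calls. The log2 fold changes of the 28 genes ran from -0.38 to 0.51 with a median of 0.10, beside a median of 0.0012 over all genes tested, and 22 of 28 lay above 0. In 15 of the 28 genes every Ccdc117ko value lay above every WT value, and in 4 every one lay below, against 13.7% and 13.3% of all genes tested. In protein-coding genes at that level those shares were 26.3% and 24.2%, and there the 25 Spata genes gave 15 and 2.

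These calls rest on all 6 libraries together. With WT replicate 1 left out 6 of the Spata genes were called higher, and with WT replicate 3 left out 1 (Spata46). With WT replicate 2 or any 1 Ccdc117ko library left out 0 were called higher. In each case 0 were called lower, and the calls over all genes fell from 2228 to between 6 and 1268. The 6 were Spata46, Spata25, Spata9, Spata21, Spata31d1d and Spata48, of which Spata21, Spata31d1d and Spata48 were not called with all libraries. Of the genes called higher with all libraries, Spata45, Spata2l, Spata24, Spata19, Spata17 and Spata7 were called in none of these fits. At an unadjusted limma p under 0.05 the same fits gave 12 to 14 Spata genes higher and 2 or 3 lower. The share of all genes at that threshold was not counted, here or for the unadjusted counts further on. Those counts therefore have no background beside them. When the fit was limited to genes whose mean reached 10 normalized counts, 12 Spata genes were called higher and 2 lower, beside 16.6% of the 22878 genes fitted (8.35% higher and 8.25% lower), and leaving out 1 library then gave 7 to 13 higher and 0 to 2 lower.

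**Figure D1:**
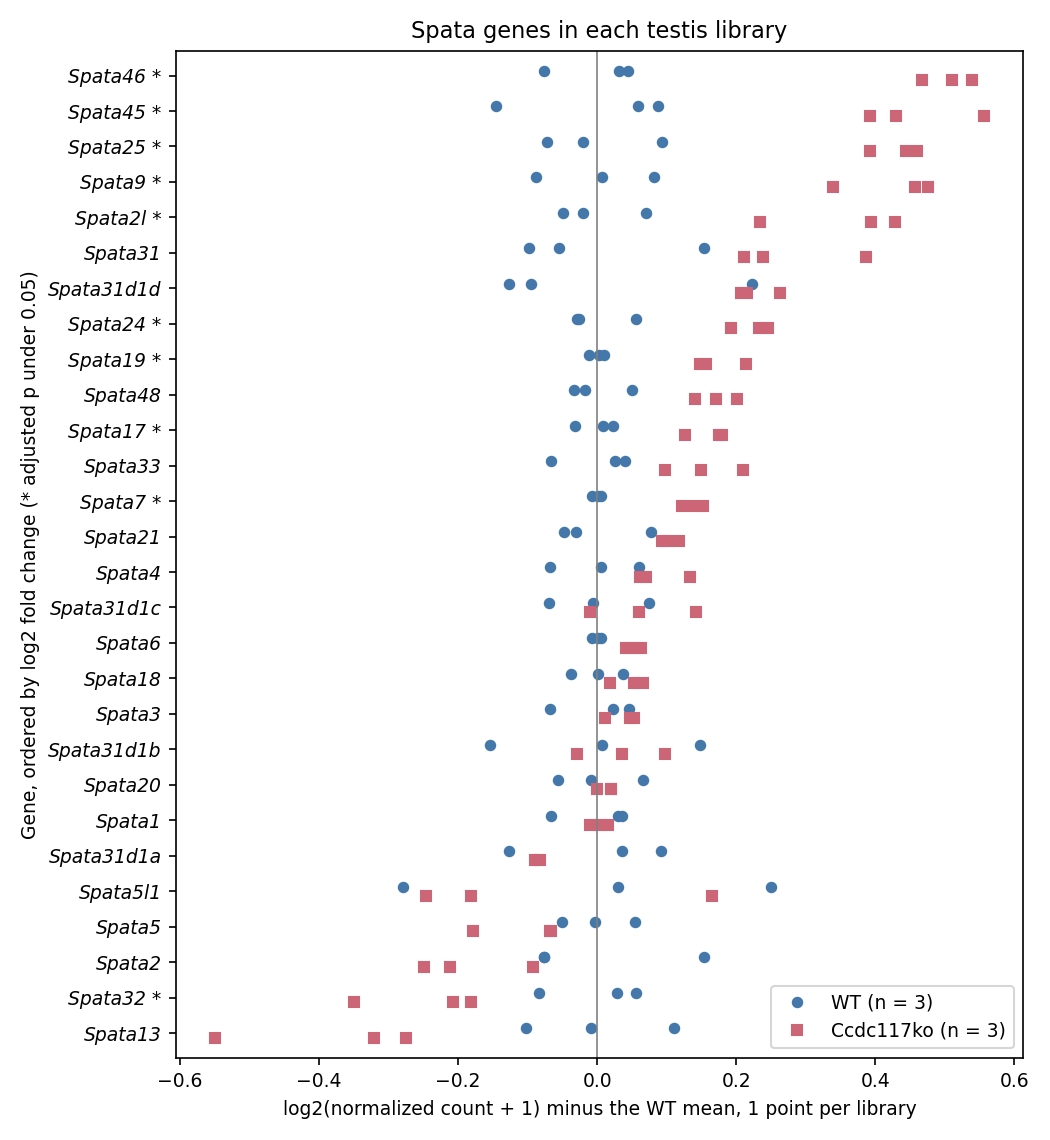
Each row is 1 of the 28 Spata genes, and each point is 1 library, placed by its log2(normalized count + 1) minus the WT mean of that gene (circles WT, squares Ccdc117ko, n = 3 each). Spata46 stands at the top with all Ccdc117ko points to the right of all WT points, Spata13 and Spata32 stand at the bottom with all of them to the left, and asterisks mark the 10 genes with an adjusted p under 0.05.

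Depth was similar in the 6 libraries, with 35791616 to 43461692 reads counted. Ccdc117 itself was read at 3657, 3826 and 3931 normalized counts in WT and at 3478, 3772 and 3908 in the libraries labelled Ccdc117ko, a log2 difference of -0.034 (limma, adjusted p = 0.763), so its level does not check the genotype labels. Marker genes of other cell types and stages differed with genotype. Their lists were chosen with earlier results of these data known, so the counts of calls are a description and not a test. Of all genes tested 3.7% were called higher and 3.1% lower. Among protein-coding genes at a mean level of 1000 or more the shares were 10.6% and 7.78%. Of 8 round spermatid markers 8 were higher, and their summed level was 44981 to 50322 normalized counts in WT and 57197 to 60097 in Ccdc117ko. Of 8 Sertoli cell markers 6 were lower (sums of 9371 to 9497 against 7696 to 8165), and of 7 spermatogonial markers 3 were lower (7541 to 8266 against 5909 to 6223). In 7 of 7 spermatogonial and 7 of 8 Sertoli markers every Ccdc117ko value lay below every WT value, against 13.3% of all genes tested. Of 6 Leydig cell markers 3 were higher and 1 lower (65500 to 76008 against 78166 to 90876). Among 8 elongating spermatid markers 1 was called, higher (704939 to 757142 against 720038 to 760955), and among 6 pachytene spermatocyte markers 1, higher (62451 to 64655 against 63150 to 65412). Of 4 peritubular myoid markers 1 was higher and 1 lower (13015 to 13624 against 14209 to 14798), and of 5 macrophage markers 1 was lower (1784 to 1954 against 1400 to 1622). The myoid sum is mostly Actg2 (mean 10286), the marker that was higher, while the other 3 lay below 0. Those were far less abundant, with means of 2354 for Acta2, 1104 for Myh11 and 227 for Cnn1. Which cells gave the Actg2 reads was not tested, so neither its call nor the sum stands for myoid cells. The Leydig sum is mostly Insl3 (mean 52693), which was not called (limma, adjusted p = 0.113). Of 13 markers of endothelium, epididymis, fat and red cells 0 were called, 5 of them with an unadjusted limma p under 0.05. After the trend with gene length and GC content was removed, the calls fell from 8 to 6 round spermatid markers and from 6 to 2 Sertoli markers, 0 myoid and 0 macrophage markers were called, and 1 pachytene marker was lower beside the 1 higher. The spermatogonial, Leydig and elongating spermatid counts were 3 lower, 3 higher and 1 lower, and 1 higher in that fit too. No marker was at 0 in all libraries. The epididymis marker Lcn8 was read only in Ccdc117ko replicate 1, lay under the filter on low values, and is not among the 13. In whole tissue a change in the number of cells of a type and a change in RNA per cell cannot be told apart, and the part of these shifts in the Spata values was not tested.

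The largest difference was in the acrosome and nuclear envelope pair, Spata46 and Spata32, which moved in opposite directions. Spata46 (ENSMUSG00000042800, GRCm38 chr1:170308803-170312125), a protein of the spermatid nuclear envelope under the acrosome with a part in sperm-egg fusion, was at 4789, 4746 and 4405 normalized counts in WT and at 6420, 6749 and 6617 in Ccdc117ko. All 3 Ccdc117ko libraries lay above all 3 WT libraries, with a gap between the groups several times the spread within either. The mean rose from 4647 ± 211 to 6595 ± 166 (SD, n = 3), 1.42-fold, a log2 change of 0.51 (SE 0.044; limma, adjusted p = 0.00525). Spata32 (chr11:103208127-103218432), a protein of the developing acrosome, was at 3622, 3991 and 3916 in WT and at 3385, 3325 and 3013 in Ccdc117ko. The groups again did not overlap, with WT replicate 1 the nearest to the Ccdc117ko values. The mean fell from 3843 ± 195 to 3241 ± 199, a log2 change of -0.25 (SE 0.058; limma, adjusted p = 0.0464). Both calls were kept after the trend with transcript length and GC content, described further on, was removed, with log2 changes of 0.40 (limma, adjusted p = 0.00337) and -0.33 (limma, adjusted p = 0.0153). With upper-quartile scaling of the libraries Spata32 stood at -0.23 and was not called (limma, adjusted p = 0.0668).

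Of the 7 genes that fell into no role group, 4 were higher and 7 of 7 had log2 fold changes above 0. Beside this count and those of the role groups below stand the shares over all genes tested, 3.7% higher and 3.1% lower. Spata45 (chr1:191036639-191042942) was at 1565, 1597 and 1358 in WT and at 1973, 2211 and 2024 in Ccdc117ko, 1.37-fold higher, with a log2 change of 0.46 (SE 0.074; limma, adjusted p = 0.0189). Spata25 (chr2:164826389-164828537) was at 1779, 1644 and 1587 in WT and at 2296, 2269 and 2189 in Ccdc117ko, 1.35-fold higher, with a log2 change of 0.43 (SE 0.053; limma, adjusted p = 0.0124). Spata9 (chr13:75967150-75998972) was at 2907, 2760 and 2586 in WT and at 3478, 3821 and 3773 in Ccdc117ko, 1.34-fold higher, with a log2 change of 0.42 (SE 0.057; limma, adjusted p = 0.0146). In these 3 genes the groups were well apart, and WT replicate 3 was the lowest library of the 6. Spata24, whose product binds the TBP-related factor TRF2, was among the most abundant and rose less, from 15754, 16670 and 15716 in WT to 19020, 18847 and 18324 in Ccdc117ko (log2 change 0.22, SE 0.036; limma, adjusted p = 0.0187). The groups did not overlap. After the length and GC trend was removed, Spata24 was at 0.11 and no longer called (limma, adjusted p = 0.0891), and 41.9% of its exonic bases lie within a second gene model on the same strand, SPATA24, so its count is uncertain.

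Spata48, Spata21 and Spata3 were not called. Spata48 was at 2504, 2387 and 2362 in WT and at 2779, 2720 and 2665 in Ccdc117ko, groups that did not overlap, and its log2 difference of 0.17 stood just outside the threshold (limma, adjusted p = 0.0501). Spata21, which carries EF-hand calcium-binding motifs, was at 46660, 42799 and 43294 in WT and at 47161, 47972 and 47416 in Ccdc117ko (log2 difference 0.10; limma, adjusted p = 0.155). WT replicate 1 of Spata21 came close to the Ccdc117ko values, and the other WT libraries were lower. Spata3 was at 17642 to 19077 in WT and at 18627 to 19176 in Ccdc117ko, ranges that overlapped (log2 difference 0.037; limma, adjusted p = 0.62).

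Among the 4 genes linked to mitochondria, 1 was higher. Spata19, needed for the function of sperm mitochondria and for motility, was at 9629, 9677 and 9540 in WT and at 10713, 11152 and 10657 in Ccdc117ko. Its WT libraries were close together, with an SD of 69.5 (n = 3), and every Ccdc117ko library lay above them. The log2 change was 0.17 (SE 0.032; limma, adjusted p = 0.0253), and 0.059 after the length and GC trend was removed, when it was no longer called (limma, adjusted p = 0.336). Spata33, which anchors calcineurin to sperm mitochondria, was at 10551, 11359 and 11249 in WT and at 12772, 12254 and 11818 in Ccdc117ko. Its groups did not overlap, but the difference of 0.15 did not pass the test (limma, adjusted p = 0.0798), and after the trend was removed it was 0.25 and did (limma, adjusted p = 0.0223). Spata18, known as Mieap and linked to the removal of damaged mitochondria, was at 25848 to 27227 in WT and at 26870 to 27768 in Ccdc117ko, with overlapping ranges (log2 difference 0.045; limma, adjusted p = 0.465). Spata20, a protein with a thioredoxin-like domain, was the most abundant of the 28 by normalized counts, at 53759 to 58475 in WT and 55889 to 56670 in Ccdc117ko. All of its Ccdc117ko values lay inside the WT range, and the 95% interval of its log2 difference was -0.070 to 0.097.

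Of the 3 genes of the cilium and the head-tail junction, 1 was higher. Spata7, which in photoreceptors works at the connecting cilium, was at 14032, 14167 and 14120 in WT and at 15358, 15669 and 15538 in Ccdc117ko. The change was small, 0.14 on the log2 scale (SE 0.028), but the libraries within each genotype were close together and the groups were apart (limma, adjusted p = 0.0325; 0.0383 after the length and GC trend was removed). Spata6, which builds the connecting piece, was at 35720, 36031 and 35947 in WT and at 36942, 37231 and 37513 in Ccdc117ko. Here too the groups did not overlap, yet the log2 difference of 0.052 did not pass the test (limma, adjusted p = 0.289; 95% interval -0.0091 to 0.11). Spata1 was at 8782, 9418 and 9388 in WT and at 9219, 9287 and 9125 in Ccdc117ko, with a log2 difference of 0.0030 (95% interval -0.084 to 0.090).

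Of the 2 flagellum genes, Spata17 was higher and Spata4 was not called. Spata17, which carries IQ motifs that bind calmodulin, was at 4085, 4201 and 4240 in WT and at 4728, 4714 and 4556 in Ccdc117ko (log2 change 0.16, SE 0.036; limma, adjusted p = 0.0402). The groups did not overlap, and after the length and GC trend was removed the change was 0.098 and no longer called (limma, adjusted p = 0.181). Spata4 was at 28561, 30050 and 31211 in WT and at 31423, 32836 and 31241 in Ccdc117ko. Its groups were just apart, with a log2 difference of 0.089 (limma, adjusted p = 0.243) that turned to -0.045 once the trend was removed.

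Of the 5 members made up of the ubiquitin adaptors, the AAA ATPases and Spata13, 1 was higher. Spata2l, a relative of Spata2 (chr8:123229801-123236233), was at 1277, 1199 and 1176 in WT and at 1432, 1638 and 1598 in Ccdc117ko, 1.28-fold higher (log2 change 0.35, SE 0.064; limma, adjusted p = 0.0232). Its groups did not overlap, and the log2 change was 0.40 after the length and GC trend was removed (limma, adjusted p = 0.0159). Spata2 was at 1100, 938 and 938 in WT and at 928, 855 and 832 in Ccdc117ko, and its log2 difference of -0.18 did not pass the test (limma, adjusted p = 0.212). These relatives stood on opposite sides of 0, with WT replicate 1 of Spata2 above the other 5 libraries. Spata5 was at 2687, 2777 and 2889 in WT and at 2655, 2460 and 2659 in Ccdc117ko (log2 difference -0.10; limma, adjusted p = 0.253). Spata5l1, the gene with the fewest counts, was at 82.5, 66.4 and 96.3 in WT and at 68.0, 71.1 and 90.7 in Ccdc117ko, and the 95% interval of its log2 difference was wide, -0.52 to 0.35. GENCODE lists this Spata5l1 gene as a processed transcript, not as protein-coding, so its counts need not be those of the ATPase mRNA. Spata13, an exchange factor for the GTPases Rac1 and Cdc42, was at 332, 286 and 306 in WT and at 254, 246 and 210 in Ccdc117ko. This was the lowest log2 difference of the 28, -0.38 (SE 0.10), with groups that did not overlap, and it did not pass the test (limma, adjusted p = 0.0658). In the fit limited to genes whose mean reached 10 it was called (limma, adjusted p = 0.0285), and once the length and GC trend was removed it was at -0.23 and not called (limma, adjusted p = 0.254).

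**Figure D2:**
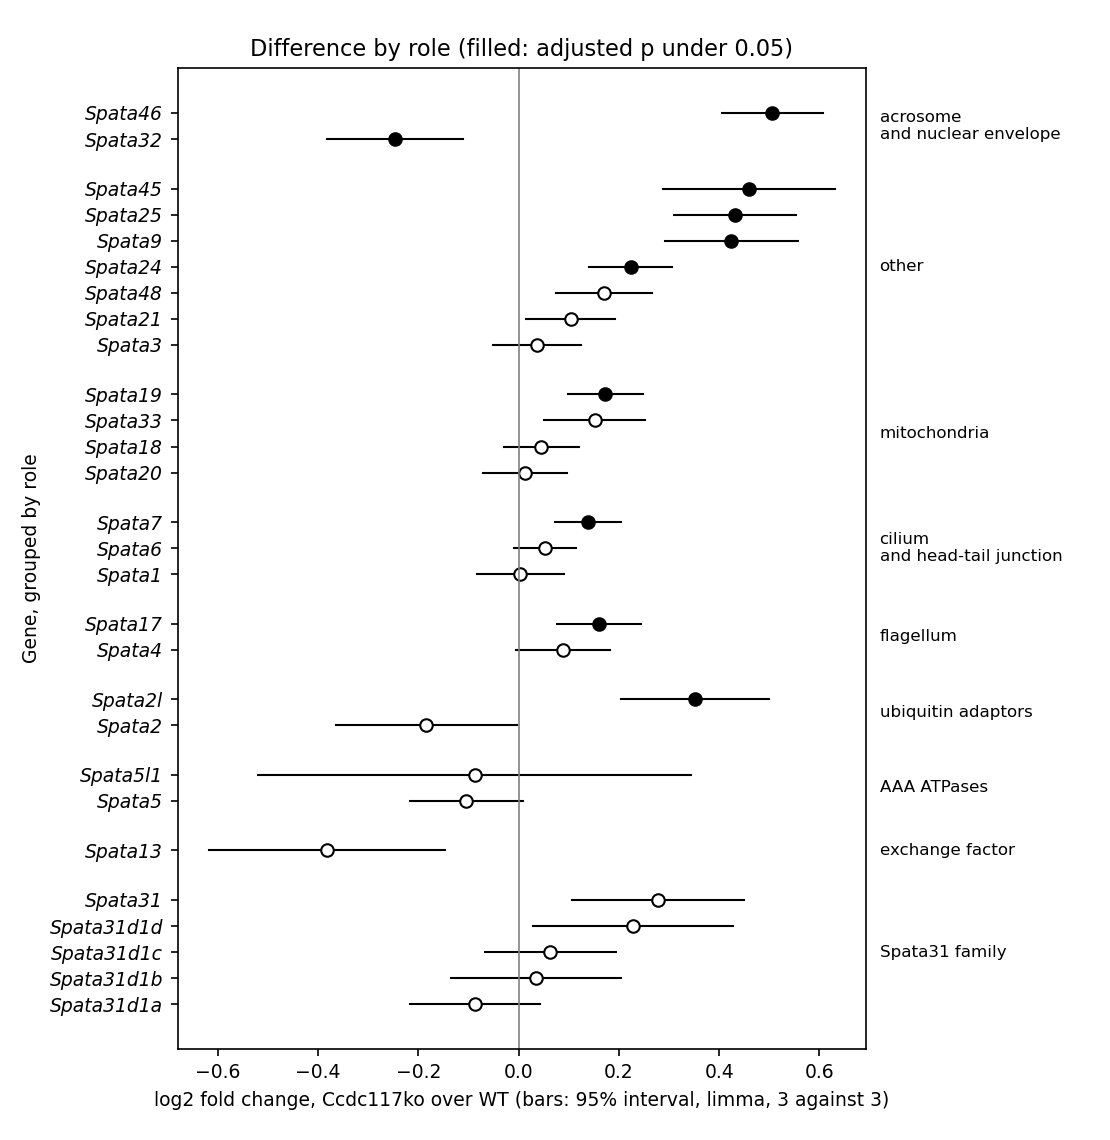
Log2 fold change of each Spata gene, Ccdc117ko over WT, grouped by role, where points are limma estimates from 3 libraries against 3, bars are 95% intervals and filled points have an adjusted p under 0.05. Spata46 at 0.51 and Spata32 at -0.25 share a group and stand on opposite sides of 0, and none of the 5 Spata31 genes is filled.

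None of the 5 Spata31 genes passed the test, with log2 differences from -0.087 to 0.28 and a median of 0.064 (2 of 5 had an unadjusted limma p under 0.05). All 5 lie on chromosome 13, where Spata31d1a (59699806 to 59710330), Spata31d1b (59712284 to 59719295) and Spata31d1d (59725925 to 59731752) are neighbours, and Spata31 (64917406 to 64923194) and Spata31d1c (65033058 to 65038004) form a second group. Spata31 was at 6201, 5213 and 5367 in WT and at 6457, 6578 and 7294 in Ccdc117ko. Its groups did not overlap, with WT replicate 1 close to the lowest Ccdc117ko library. Its log2 difference was 0.28 (SE 0.074; limma, adjusted p = 0.0653), called in the fit limited to genes whose mean reached 10 (limma, adjusted p = 0.0131) and after the length and GC trend was removed (limma, adjusted p = 0.0393). Spata31d1d was at 5591, 4387 and 4486 in WT and at 5566, 5532 and 5749 in Ccdc117ko, so that WT replicate 1 lay among the Ccdc117ko values and the groups overlapped (log2 difference 0.23; limma, adjusted p = 0.163, and 0.0426 after the trend was removed). Spata31d1b was at 9830, 7979 and 8916 in WT and at 8703, 9496 and 9100 in Ccdc117ko, and Spata31d1a was at 6025, 5176 and 5792 in WT and at 5339, 5321 and 5311 in Ccdc117ko. In both, the Ccdc117ko values lay inside the WT range. Spata31d1c, the least abundant copy, was at 1921, 2122 and 2006 in WT and at 2000, 2222 and 2100 in Ccdc117ko, with overlapping groups. In 4 of the 5 copies WT replicate 1 was the highest WT library. Summed over the 5, the level was 27004 ± 2376 in WT and 28923 ± 770.4 in Ccdc117ko, a difference smaller than the WT SD. Spata31d1a and Spata31d1b share 1055 stretches of 50 bases, 20.0% and 24.9% of those in each, so a read that lies within such a stretch matches both copies.

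**Figure D3:**
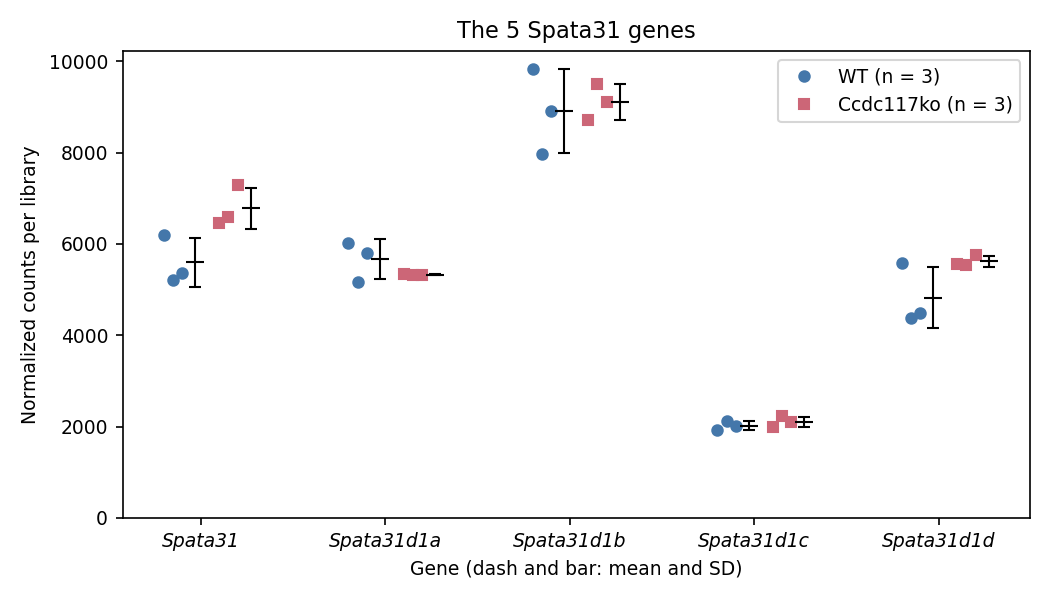
Normalized counts of the 5 Spata31 genes in each library (circles WT, squares Ccdc117ko; the dash and bar beside each group are the mean and SD, n = 3). Spata31 runs from 6457 to 7294 in Ccdc117ko, above all WT libraries, while in Spata31d1d the highest WT library, at 5591, lies among the Ccdc117ko values.

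Log2 fold changes of the Spata genes went with transcript length, as they did in the tissue as a whole. Of the 9 Spata genes whose longest transcript has up to 1200 bases, 6 were higher and 1 lower, and the median log2 fold change was 0.22. Of the 10 with over 1200 and up to 3000 bases 3 were higher (median 0.078), and of the 9 longer ones 0 were called (median 0.035; 3 higher and 2 lower at an unadjusted limma p under 0.05). Protein-coding genes whose mean reached 50 had medians of 0.14, 0.022 and -0.092 in the same bins, and 21.1%, 8.1% and 2.77% of them were called higher. In each bin the Spata median thus lay above that of other genes, a description with no test. The Spearman correlation of log2 fold change with length was -0.52 over the 28 Spata genes and -0.39 over 14256 protein-coding genes, where genes are not independent replicates. That with mean level over the 28 was 0.013.

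A smooth trend with length and GC content was removed from each library as an alternative. It ran with genotype, so a change tied to length for any other reason was removed with it. The median over the Spata genes then was 0.088, and 9 were called higher and 1 lower, as in the fit without it, while the calls over all genes moved from 1212 higher and 1016 lower to 1276 and 547 (5.56% of genes tested in either direction, 3.89% higher and 1.67% lower). The genes were not all the same. Spata24, Spata19 and Spata17 lost their calls, and Spata31, Spata31d1d and Spata33, with longest transcripts of 3232, 3827 and 4074 bases, gained one. Spata46, Spata45, Spata25, Spata9, Spata2l, Spata7 and Spata32 were called in both.

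**Figure D4:**
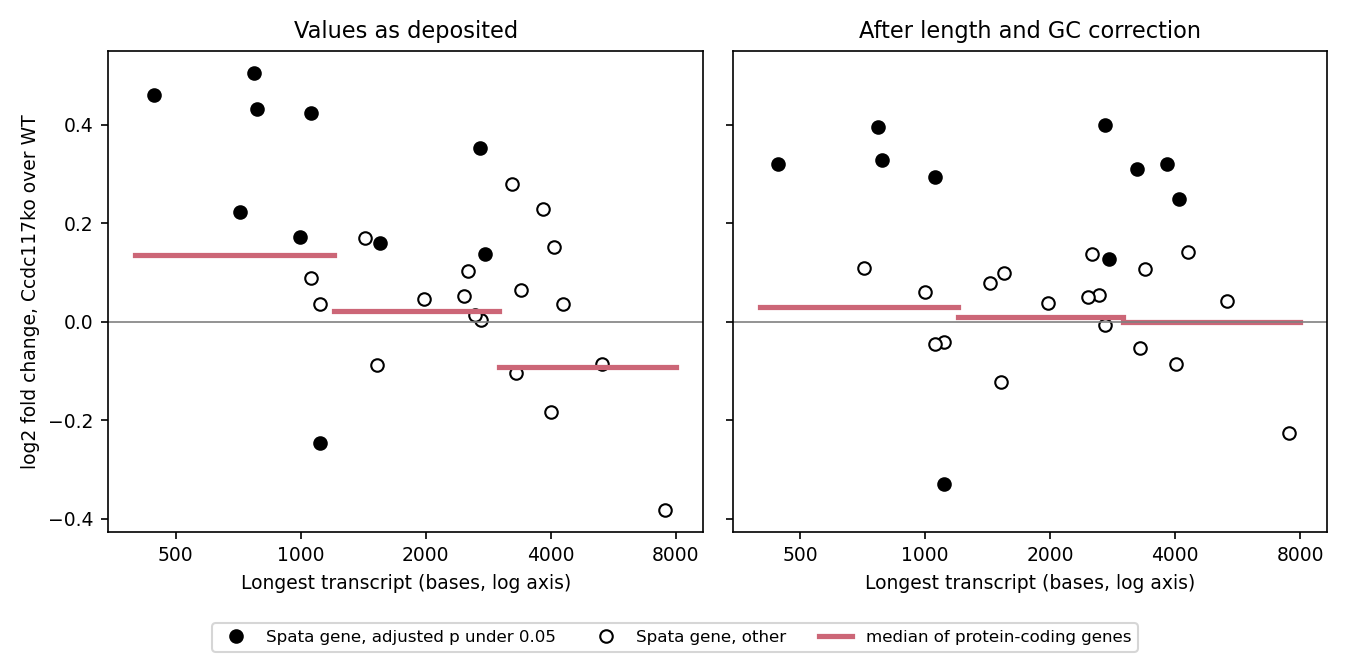
Log2 fold change (Ccdc117ko over WT) of each Spata gene against the length of its longest transcript, as deposited (left) and after the length and GC trend was removed (right), where filled points have an adjusted p under 0.05 and bars are medians of protein-coding genes in 3 length bins. On the left the bars step down from 0.14 to -0.092 and most filled points lie among short transcripts, and on the right the bars are near 0 and the filled points lie at all lengths.

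Some of these genes share exonic bases with a gene on the opposite strand, and whether counting used strand is not given in the sources used here. Spata25 shares 21.5% of its exonic bases with Zswim1 and Spata2l 11.6% with Cdk10. Neither neighbour was called, with log2 differences of -0.10 for Zswim1 (limma, adjusted p = 0.456) and 0.056 for Cdk10 (limma, adjusted p = 0.628). Spata48 shares bases with Zpbp, which stood at 0.14 (limma, adjusted p = 0.0604), and Spata4, Spata5, Spata2, Spata1 and Spata31d1d share 2.86% to 11.1% with others. Of the 19 Spata genes that share no exonic base with another gene, 6 were higher and 1 was lower. Over all genes tested the shares were 3.7% and 3.1%. They were 10.6% and 7.78% among protein-coding genes at a mean level of 1000 or more, a level that 17 of the 19 reached.

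A list of 44 gene identifiers known to act with single Spata proteins, or in the same structures, was read in the same fit. Of these 6 were higher, 1 was lower and 37 did not pass the test, with a median log2 fold change of -0.027. Over all genes tested the shares were 3.7% higher and 3.1% lower. They were 10.6% and 7.78% among protein-coding genes at a mean level of 1000 or more, a level that 32 of the 44 reached. In the head-tail junction 3 of 9 were higher, while 4 lay above 0 and 5 below it, with a median log2 fold change of -0.051. Sun5, a nuclear envelope protein that holds the head to the tail, was at 3204, 2927 and 2607 in WT and at 3847, 4139 and 4130 in Ccdc117ko (log2 change 0.48; limma, adjusted p = 0.0174). Spatc1l rose by 0.33 (limma, adjusted p = 0.0189) and Cep112, a centrosomal protein, by 0.23 (limma, adjusted p = 0.0191), while Odf1, an outer dense fibre protein and the most abundant of the list's head-tail genes, did not pass the test at 0.15 (limma, adjusted p = 0.0784). The 5 below 0 were Tsga10, Pmfbp1, Cntln, Spatc1 and Hook1, from -0.13 to -0.051, and none of these 5 passed. In the mitochondrial sheath 3 of 8 were higher and 8 of 8 lay above 0. Those called were Tbc1d21 at 0.28 (limma, adjusted p = 0.0254), Armc12 at 0.26 (limma, adjusted p = 0.0296) and Gykl1 at 0.20 (limma, adjusted p = 0.0304). Smcp, Gpx4, Gk2 and Vdac2, abundant genes of the sheath and its mitochondria, stood at 0.12, 0.12, 0.093 and 0.041 and did not pass. In the calcineurin list 1 of 4 was called, Ppp3ca, a catalytic subunit found in many tissues, which fell by 0.27 (limma, adjusted p = 0.0479; not called after the length and GC trend was removed, adjusted p = 0.169). The remaining lists, which include the linear ubiquitin, ciliary, mitophagy and ribosome maturation genes, gave 0 calls among 23 genes. Of these 23, 7 had an unadjusted limma p under 0.05. With 6.8% of all genes tested called in either direction, 0 calls among so few genes says little about these lists.

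In the authors' deposited table, at an FDR under 0.05, 13 of the 28 genes were higher and 2 lower, beside 5.78% and 5.77% of all 36652 genes. That table adds Spata31, Spata48, Spata33 and Spata21 to the genes called higher here and Spata13 to those called lower, and it holds all 10 genes called here. Its FDR was 2.2e-27 for Spata46 and 0.000146 for Spata32.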

How the data were processed

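Stranded mRNA libraries of whole testis were run on an Illumina HiSeq, per the labels' protocols. The authors' tools, per the submitters' processing notes, include STAR and DESeq2 with the build mm10, given without role or version. How reads were counted, and whether by strand, is not given in the sources used here. Of 36652 genes the authors deposited log2 values, read here as log2(normalized count + 1) from the values: undoing the log2 gave whole multiples of 1 step per library, 100% whole within 0.01 among values under 500 reads. The deposited table also holds the authors' log2 fold change, p-value and FDR, whose test it does not state. P-values credited to limma were computed here.

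Limma-trend (limma 3.58.1, R 4.3.3) was fitted to the deposited log2 values with 1 term, genotype, over the 32783 genes whose mean reached 0.5 normalized counts. Two-sided p-values were adjusted over all genes tested (Benjamini-Hochberg, threshold 0.05). A fold change on this log2 scale, with its pseudocount of 1, understates the change of low genes. The fit was tested on simulated data whose planted changes were all larger than those of the Spata genes called here. That test therefore does not cover changes of their size. Depth was 35791616 to 43461692 reads per library. Coordinates, lengths and GC came from GENCODE M21 on GRCm38, which matched 28 of the 28 genes. The length and GC trend was removed per library with natural splines of log2 length and GC (3 inner knots), fitted on genes whose mean reached 10. Sequences came from RefSeq on GRCm38.p6, with windows aligned end to end (match 1, mismatch -1, gap -2). Alternatives covered the pseudocount, filters, scaling, the test, a replicate block and each library left out.

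Every Spata gene could be named, and of the partner genes up to 12, those called first and then the most abundant. The 5 head-tail junction genes below 0 were named beyond these 12, to show both directions of that list. The Spata genes, the partner list and the marker lists were chosen with earlier results of these data known.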

Additional observations from a re-analysis of the deposited data

How the results depend on the processing

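Of the main counts, 9 Spata genes higher and 1 lower, 6 partner genes higher and 1 lower, and 2228 genes called in all, pseudocounts of 0.5 and 4, no filter and voom on the recovered reads left each within 1.5 times. With a mean of at least 10 the fit called 3798 genes in all, 2 Spata genes lower and 2 partners lower, and with at least 1 CPM in 3 libraries 4127, 2 and 4. Upper-quartile scaling left 0 Spata genes and 0 partners lower. The length and GC correction left 0 partners lower, and with or without the block it turned Spata1 (-0.0072), Spata3 (-0.041), Spata4 (-0.045), Spata31d1a (0.042) and Ccdc117 (0.025). Without a mean-variance trend 103 genes were called, with 0 Spata genes and 0 partners in either direction (11 Spata genes higher and 2 lower at an unadjusted p under 0.05). The filters leave fewer low genes in the fit, and the cause of these moves was not tested.

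The deviations of same-numbered libraries correlated at -0.0033, -0.0039 and 0.0061 over 22878 genes, so no pairing by replicate number was seen. The labels do not say what the numbers stand for, and this correlation cannot exclude a pairing. With the number as a replicate block 703 genes were called, 5 Spata genes higher and 0 lower, and 1 partner higher and 0 lower; with the block and the length and GC correction these were 337, 2, 0, 1 and 0.

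Leaving out each library in turn gave 6 to 1268 genes called, 0 to 6 Spata genes higher, 0 lower, 0 to 4 partners higher and 0 to 1 lower. At a mean of at least 10 these ranges were 1714 to 4021, 7 to 13, 0 to 2, 6 to 10 and 1 to 5. Spata46, Spata45, Spata25, Spata9, Spata2l and Spata24 were then called in 6 of 6 fits, Spata19 and Spata32 in 5, Spata7 in 3 and Spata17 in 2. The sign turned in 5 genes, none of them called: Spata1 ran from -0.030 without WT replicate 1 (-0.0030 without Ccdc117ko replicate 2) to 0.021, Spata20 from -0.014 without WT replicate 2 to 0.046, Spata31d1b from -0.042 without WT replicate 2 to 0.11, Spata5l1 from -0.23 to 0.038 without WT replicate 3, and Ccdc117 from -0.070 to 0.014 without Ccdc117ko replicate 1. The Spata median stayed between 0.082 and 0.11 throughout. With 3 libraries per genotype the spread is poorly known, and the low counts of Spata5l1 limit its precision.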
